A study of Mus musculus with 12 samples.

Results

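The nuclear genes for the subunits of the mitochondrial respiratory chain were examined in macrophages sorted from MC38 tumours of mice treated with DMSO or picrotoxin. A gene was a member when its symbol followed the naming pattern of the subunits (Nduf followed by a, b, c, s or v and a digit, Sdha to Sdhd, Uqcr, Cox4 to Cox8, Atp5, and Cyc1) and its mean count over the 12 libraries was at least 1. Of 84 matching symbols, 77 were members, out of 24781 rows in the table. Of these, 36 belonged by symbol to complex I, 4 to complex II, 9 to complex III, 12 to complex IV and 16 to complex V. All 77 were among the 9580 genes tested.

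The respiratory chain sits in the inner mitochondrial membrane. Complexes I and II pass electrons from NADH and succinate to ubiquinone, complex III hands them to cytochrome c, and complex IV gives them to oxygen. Proton pumping by complexes I, III and IV drives the rotary ATP synthase, complex V. A few subunits are encoded in mitochondrial DNA and most in the nucleus, and the latter are the subject here. In macrophages, oxidative phosphorylation is known to be used more in anti-inflammatory than in classically activated states.

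The 6 DMSO and 6 picrotoxin libraries each came from 100 CD45+CD11b+F4/80high cells sorted on day 7 after inoculation of WT mice with MC38, a mouse colon adenocarcinoma line. Picrotoxin blocks the GABA-A receptor channel and DMSO is its vehicle; according to the study's methods, both were injected into the peritoneum, starting before inoculation. The labels give neither age nor sex of the mice. The comparison asks whether blocking this receptor was accompanied by a change in the transcripts of the tumour macrophages. The labels call the replicates independent library preparations and the methods state that each library came from its own mouse, but the study's figure text names fewer mice than there are libraries. If some libraries share a mouse, p-values are too small. Fewer cells of a type and less RNA per cell cannot be told apart in such libraries.

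Libraries held 201697 to 309617 molecules, counted by molecular barcodes, from 9846 to 10866 genes. Of all molecules, the ribosomal RNA gene Rn45s took 7.37 to 13.7% with DMSO and 11.7 to 15.2% with picrotoxin. Macrophage markers took 1.21 to 1.68% of the molecules with DMSO and 1.44 to 1.62% with picrotoxin, and all 14 were detected. Fibroblast and matrix markers ranged from 0.0895 to 0.515% with DMSO, highest in DMSO replicate 5, and from 0.124 to 0.235% with picrotoxin. Of 12 tested matrix markers, 9 were lower with picrotoxin at an unadjusted p under 0.05. Neutrophil, dendritic cell, T and NK cell, B cell and epithelial markers each summed to at most 10, 22, 23, 3 and 21 molecules in a library, and 7 of 10, 2 of 8, 4 of 11, 5 of 6 and 6 of 9 of those in the table were at 0 throughout. The part of other cells in the results below was not tested.

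To show the genomic setting of the genes, stretches of 120 bases directly upstream of RefSeq transcription starts are given 5′ to 3′ on the strand of the gene. Capitals mark matches to GCGCNTGCG or its reverse complement CGCANGCGC, the core letters of a site for NRF1, a factor known to act on many respiratory genes. In complexes I, II, IV and V the stretch with the most matches is printed, the alphabetically earlier symbol where members tied; overlapping matches on the 2 strands count separately. None of the 5 complex III stretches held a match.
Ndufa11, an accessory subunit of complex I, GRCm38.p6 chr17:56717642-56717761, plus strand: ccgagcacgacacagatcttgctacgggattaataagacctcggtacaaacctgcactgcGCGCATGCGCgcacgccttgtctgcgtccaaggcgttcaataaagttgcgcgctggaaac
Sdha, the flavoprotein of complex II, chr13:74350241-74350360, minus strand: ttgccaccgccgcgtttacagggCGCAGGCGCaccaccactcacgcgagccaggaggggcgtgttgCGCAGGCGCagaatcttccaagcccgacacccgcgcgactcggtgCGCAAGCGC
Cox6a1, a subunit of complex IV, chr5:115348959-115349078, minus strand: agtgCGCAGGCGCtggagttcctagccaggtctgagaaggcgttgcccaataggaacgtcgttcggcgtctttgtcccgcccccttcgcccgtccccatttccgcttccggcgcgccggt
Atp5g2, a c-ring subunit of complex V, chr15:102671048-102671167, minus strand: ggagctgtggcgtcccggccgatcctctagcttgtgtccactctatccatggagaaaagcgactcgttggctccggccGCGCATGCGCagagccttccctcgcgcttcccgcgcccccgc
For 3 of the 4 members with the smallest p-values described below, Atp5c1, Atp5g1 and Atp5d, a stretch is printed as well. Uqcrq, the other of these 4, had no entry. Atp5c1 and Atp5d each have a further RefSeq start, whose stretch is not printed and held 0 matches.
Atp5c1, the gamma subunit of the central stalk, chr2:10080433-10080552, minus strand: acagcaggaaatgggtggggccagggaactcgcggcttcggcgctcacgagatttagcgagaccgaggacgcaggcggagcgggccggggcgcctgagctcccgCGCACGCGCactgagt
Atp5g1, a c-ring subunit, chr11:96075632-96075751, minus strand: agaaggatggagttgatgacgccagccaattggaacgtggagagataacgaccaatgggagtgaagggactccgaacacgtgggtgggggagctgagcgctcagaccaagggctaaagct
Atp5d, the delta subunit of the central stalk, chr10:80142195-80142314, plus strand: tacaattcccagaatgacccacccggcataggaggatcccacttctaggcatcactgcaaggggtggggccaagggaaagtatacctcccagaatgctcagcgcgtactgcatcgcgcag

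Windows from 250 bases before to 50 after the start were available for 65 members, with 70 windows in all. The NRF1 letters, searched on both strands, were in 34.3% of the member windows, 14.5% of the windows of tested genes and 6.31% of all windows. By complex, 10 of 34 windows of complex I held them, 2 of 3 of complex II, 3 of 5 of complex III, 1 of 10 of complex IV and 8 of 18 of complex V. The letters AAGATGGC of a YY1 site were in 14.3% of member windows against 4.95% for tested genes, and the AAGGTCA core of an ERRA site in 11.4% against 3.07%. The CCGGAAG core of an ETS (GABPA) site was in 22.9% against 19.7%, and the GGGCGG of an SP1 site in 38.6% against 63.9%. Members with NRF1 letters had a median log2 fold change of −0.08 and those without them one of −0.06. These matches describe letters and not binding. Some windows of a gene overlap each other.

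Across all 5 complexes, the subunit transcripts of the picrotoxin libraries lay close to their DMSO levels. In edgeR's quasi-likelihood test, with p-values adjusted across the whole tested table by the Benjamini–Hochberg method, 0 of 77 members had an adjusted p under 0.05, against 0.0522% (5) of all tested genes, and the smallest adjusted p of a member was 0.357. DESeq2 gave 0 members as well. At an unadjusted p under 0.05, 4 members (5.19%) were lower with picrotoxin, against 4.11% of all tested genes, and 0 were higher, against 3.65%. These shares of lower calls lie near the background. Among genes with a mean above 10 normalised molecules, 4 of 73 members (5.48%) were lower, against 4.09%, and 0 were higher, against 6.71%. DESeq2's Wald test called 3 lower (3.9%; background 2.05%) and 0 higher (background 1.77%).

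The fold changes of the members leaned to the lower side by a small amount. Of the 77, 51 (66.2%) had a log2 fold change (picrotoxin minus DMSO) below 0, against 50.8% of all tested genes. With a mean above 10, 47 of 73 (64.4%) were below 0, against 46.2%. The members' median was −0.07 and that of all tested genes −0.01. With a mean above 10 these medians were −0.07 and 0.02. In complex III 8 of 9 and in complex V 15 of 16 members were below 0, whereas complex I was split 18 to 18; the difference between complexes was not tested. The median standard error of a member was 0.16 on the log2 scale. For 75 members the 95% interval stayed within a 2-fold change in either direction, and for 61 within 1.5-fold. The 2 members with wider intervals were Atp5s and Cox7a1, the least counted. Scaling by library totals alone, which moved the median of all tested genes to −0.06, put 59 members below 0, and replicates 3 to 6 alone gave 44.

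**Figure D1:**
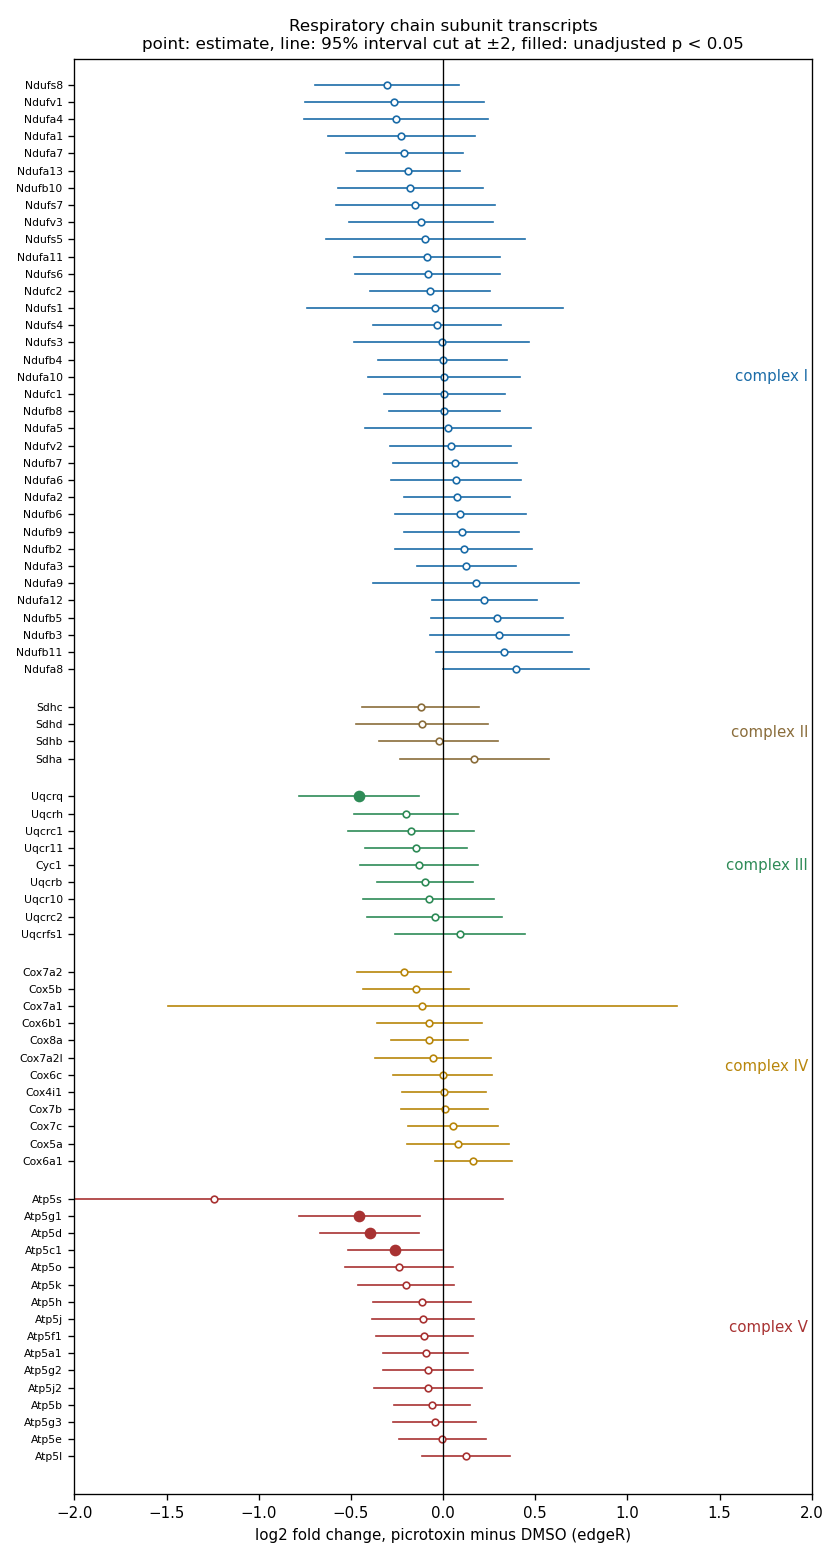
Log2 fold change (picrotoxin minus DMSO, horizontal axis) of 76 of the 77 members, grouped by complex and ordered within each complex, with 95% intervals as lines and filled points for an unadjusted p under 0.05. Complex I is split around 0, and the 4 filled points, all lower, are Uqcrq in complex III and Atp5g1, Atp5d and Atp5c1 in complex V.

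Summed over members, the normalised molecules per library were 3420 ± 161 with DMSO and 3266 ± 97.5 with picrotoxin (SD, n = 6 each), so that the mean decreased by 4.49%. All 6 picrotoxin libraries lay below the DMSO mean and 0 below the lowest DMSO library. As a share of all molecules, members took 1.49% ± 0.08 with DMSO and 1.38% ± 0.04 with picrotoxin, or 1.65% ± 0.06 and 1.58% ± 0.04 when Rn45s was left out of the total.

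Complex V, the ATP synthase, held 3 of the 4 lower calls. Those 4 calls are 5.19% of the 77 members, near the 4.11% of all tested genes. Whether they gather in complex V was not tested. Its 16 members summed to 1142 ± 62.3 normalised molecules with DMSO (1033 to 1221) and 1050 ± 40.4 with picrotoxin (988 to 1098), so that the mean decreased by 8.04%. Every picrotoxin library lay below the DMSO mean, and 2 lay below the lowest DMSO library, so the groups overlapped. The median log2 fold change was −0.11.

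The F1 head, where ATP is made, and the central stalk that turns within it are encoded by 5 genes, all with fold changes below 0. Atp5d, the delta subunit of the stalk (Ensembl ENSMUSG00000003072, chr10:80138632-80145818, plus strand, GRCm38), had 47.3, 56.6 and 72.7 normalised molecules with DMSO (lowest, median and highest library) and 41.4, 44.3 and 46.1 with picrotoxin. All 6 picrotoxin libraries were below all 6 DMSO libraries, a separation that 0.188% of all tested genes showed in this direction and 0.198% in the other. Atp5d was the 1 member with it, and 0 members were separated upwards. Its means were 58.7 ± 9.80 and 44.1 ± 1.71 (SD, n = 6), a log2 fold change of −0.40 (SE 0.13; edgeR unadjusted p = 0.00481, adjusted p = 0.357). DMSO replicates 3 and 5, the libraries with the highest values, also had the highest shares of matrix transcripts, 0.270% and 0.515%. The next share was 0.258%, in DMSO replicate 6. Without replicates 3 and 5, the log2 fold change of Atp5d was −0.27 (edgeR unadjusted p = 0.0738). Leaving out the highest DMSO values lowers the difference whatever their matrix share, and that fit has fewer libraries. The part of matrix transcripts in it was therefore not tested. In that fit 4 members (5.19%) were lower at an unadjusted p under 0.05, against 2.73% of all tested genes: Atp5g1 and Uqcrq as before, with Atp5o and Cox7a2 in place of Atp5d and Atp5c1. Exons of Cbarp lie antisense to those of Atp5d, and whether counting used the strand is not given in the sources used here.

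Atp5c1, the gamma subunit (ENSMUSG00000025781, chr2:10056016-10080510, minus strand), had 51.9, 67.0 and 72.5 normalised molecules with DMSO and 46.7, 55.7 and 58.9 with picrotoxin. The ranges overlapped, with 2 picrotoxin libraries below the lowest DMSO library. Its log2 fold change was −0.26 (SE 0.13; edgeR unadjusted p = 0.0454, adjusted p = 0.631), and in 12 of 22 alternative fits the unadjusted p was no longer under 0.05. In replicates 3 to 6 alone the log2 fold change was −0.14.
Atp5a1 and Atp5b, the alpha and beta subunits that form the catalytic head, had log2 fold changes of −0.09 (SE 0.11) and −0.06 (SE 0.10). Atp5b went from 136, 147 and 172 normalised molecules with DMSO to 126, 144 and 156 with picrotoxin, with a 95% interval of −0.26 to 0.15 on the log2 scale. Atp5e, the epsilon subunit, stood at −0.004 on the log2 scale (SE 0.12).

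The c ring, which turns as protons pass, is built from 1 mature protein encoded by 3 genes. Atp5g1 (ENSMUSG00000006057, chr11:96068852-96075670, minus strand) had 26.9, 47.0 and 48.7 normalised molecules with DMSO and 24.2, 32.1 and 38.2 with picrotoxin. Of the DMSO libraries, 5 lay above all picrotoxin libraries and replicate 4 lay among them. The log2 fold change was −0.45 (SE 0.16; edgeR unadjusted p = 0.00805, adjusted p = 0.408). The count of Atp5g1 is uncertain, since its longest RefSeq-matched transcript shares runs of 50 bases with 163 other genes, 9 of them within its last 300 bases.
Atp5g2 and Atp5g3 had log2 fold changes of −0.08 (SE 0.12) and −0.05 (SE 0.11). Atp5g1 made up 18.2% ± 3.06 of the c-ring molecules with DMSO and 14.5% ± 2.43 with picrotoxin, while Atp5g3 made up 47.3% ± 4.26 and 49.9% ± 3.28. The Atp5g1 shares spanned 12.6 to 21.9% and 12.04 to 17.9% and overlapped.

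The peripheral stalk, which holds the head still, was represented by Atp5f1, Atp5h, Atp5j and Atp5o. Their log2 fold changes ranged from −0.24 (Atp5o, SE 0.14) to −0.10 (Atp5f1), and their sum went from 230.5 ± 12.6 to 207 ± 11.98 normalised molecules. None of the 4 passed the unadjusted threshold. Of the other membrane subunits, Atp5k had −0.20 and Atp5l 0.12. Atp5l was the 1 member of complex V above 0. Atp5s was a member by its symbol and was placed in none of these parts of the enzyme. It was counted 12 times in all DMSO and 4 times in all picrotoxin libraries. Its log2 fold change was −1.24 (SE 0.77), the lowest of all members, with the widest interval (−2.81 to 0.33).

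**Figure D2:**
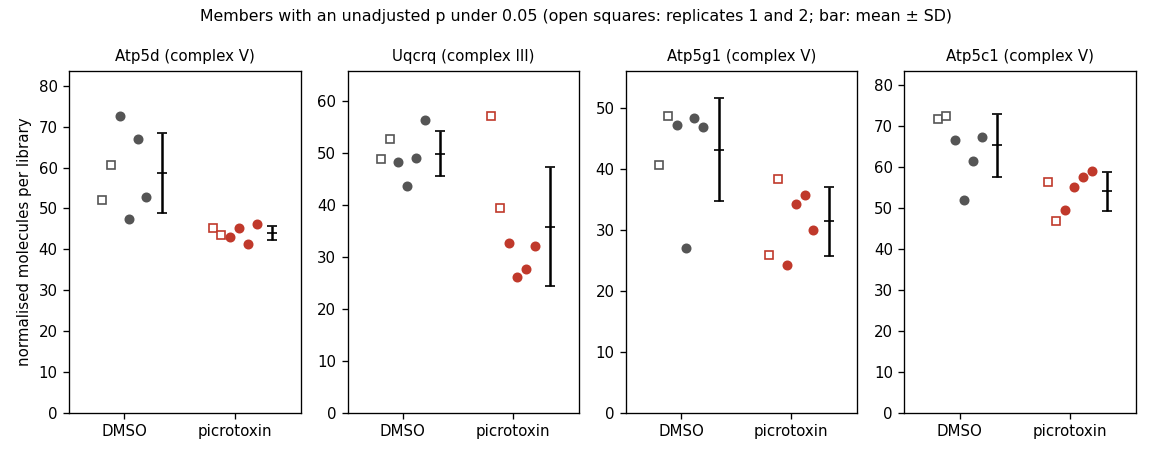
Normalised molecules per library (vertical axis, from 0) of the 4 members with an unadjusted p under 0.05, in DMSO (grey) and picrotoxin (red) libraries, with mean ± SD beside the points and open squares for replicates 1 and 2. Only Atp5d shows no overlap between the groups, and for Uqcrq picrotoxin replicate 1 is above every DMSO library.

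Complex III, which carries electrons from ubiquinol to cytochrome c, held the other lower call. Its 9 members summed to 377 ± 25.1 normalised molecules with DMSO (329 to 400.5) and 336 ± 38.7 with picrotoxin (302 to 398), so that the mean decreased by 10.8%. Of the picrotoxin libraries, 3 lay below the lowest DMSO library. Among the libraries numbered 3 to 6 the mean was 313 with picrotoxin (302 to 334) and 374 with DMSO (329 to 400.5), so the ranges overlapped. The libraries numbered 1 and 2 averaged 382 with picrotoxin and 383 with DMSO. This split by number was not tested.
Uqcrq, a small ubiquinone-binding subunit (ENSMUSG00000044894, chr11:53427922-53430831, minus strand), had 43.6, 49.0 and 56.4 normalised molecules with DMSO and 26.1, 32.4 and 57.1 with picrotoxin. In 5 picrotoxin libraries it was below every DMSO library, and in picrotoxin replicate 1 above every one. The log2 fold change was −0.45 (SE 0.16; edgeR unadjusted p = 0.00769, adjusted p = 0.408). In replicates 3 to 6 alone it was −0.72 (SE 0.18, edgeR adjusted p = 0.0486). Uqcrq was the 1 member with an adjusted p under 0.05 there, against 0.507% of the genes tested in those libraries. In the same libraries 4 members were lower at an unadjusted p under 0.05, against 4.96%. These libraries leave out picrotoxin replicates 1 and 2, which had the highest Uqcrq of their group (57.1 and 39.3). With any single library left out instead, 0 members had an adjusted p under 0.05.

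The other complex III genes had unadjusted p-values above the threshold. Uqcrh, the hinge protein, had 51.9, 66.0 and 79.9 normalised molecules with DMSO and 43.3, 53.1 and 76.4 with picrotoxin, a log2 fold change of −0.20 (SE 0.14). Cyc1, which is cytochrome c1 and carries the haem that reduces cytochrome c, had −0.13 (SE 0.16), with 26.0 to 37.4 normalised molecules against 22.5 to 36.9. Uqcrfs1, the Rieske iron–sulfur protein, had 0.09 (SE 0.17) and was the 1 member of this complex above 0. The core proteins Uqcrc1 and Uqcrc2 had −0.17 and −0.05.

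**Figure D3:**
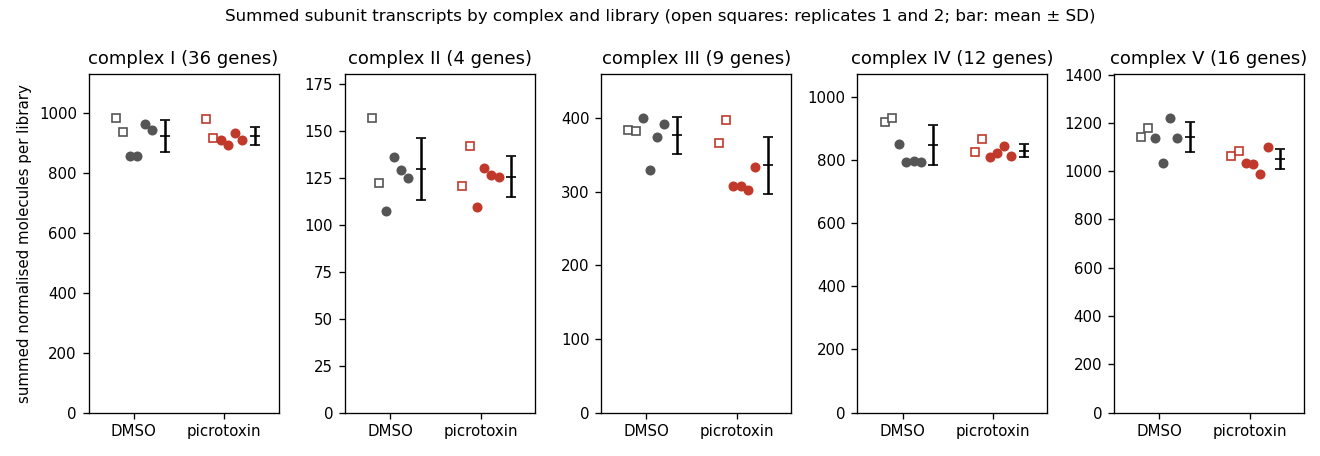
Summed normalised molecules per library (vertical axes, each from 0) of the members of complexes I to V, for DMSO (grey) and picrotoxin (red), with mean ± SD beside the points and open squares for replicates 1 and 2. The groups overlap for every complex, complex I stays at 924 against 925, and the picrotoxin replicates 3 to 6 of complex III lie between 302 and 334.

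Complex I, the NADH dehydrogenase, had nearly the same sum in both groups, with 924 ± 54.9 normalised molecules with DMSO and 925 ± 30.1 with picrotoxin. Its 36 members had a median log2 fold change of 0.001, none passed the unadjusted threshold in either direction, and all 36 intervals stayed within 2-fold.
Its catalytic core, which holds the flavin and the iron–sulfur clusters, is encoded partly in the nucleus. The nuclear core genes summed to 125 ± 8.24 normalised molecules with DMSO and 114 ± 10.7 with picrotoxin, a difference that was not tested. Ndufs8, an iron–sulfur protein, had 14.8, 19.96 and 22.7 normalised molecules with DMSO and 12.7, 15.4 and 20.2 with picrotoxin (log2 fold change −0.30, SE 0.19; edgeR unadjusted p = 0.122). Ndufv1, the NADH-binding flavoprotein, had −0.26 (SE 0.24), and Ndufs7, another iron–sulfur protein, −0.15 (SE 0.21). Ndufs1 (−0.05, SE 0.34), Ndufs3 (−0.01) and Ndufv2 (0.04) lay near 0, and these 3 changed sign when single libraries were left out.

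The accessory subunits surround the core and are needed for its assembly and stability. Of the 28 accessory members, 11 were below and 17 above 0, with a median of 0.02, and their sum was 786 ± 64.3 with DMSO and 799 ± 23.6 with picrotoxin. Ndufa8, of the membrane arm, stood highest, with 11.3, 17.4 and 23.9 normalised molecules with DMSO and 18.4, 21.8 and 29.7 with picrotoxin; every picrotoxin library was above the DMSO mean. Its log2 fold change was 0.40 (SE 0.19; edgeR unadjusted p = 0.0502, adjusted p = 0.643). Ndufb11 followed with 0.33 (SE 0.18; edgeR unadjusted p = 0.0784). Ndufa1 stood lowest at −0.23 (SE 0.20), and Ndufa3 had 0.13 (SE 0.13).
Ndufa4 is named as a complex I subunit but its protein is found in complex IV; it had 6.24, 15.0 and 18.6 normalised molecules with DMSO and 7.36, 11.6 and 17.5 with picrotoxin (log2 fold change −0.26, SE 0.25).

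Complex II, succinate dehydrogenase, is the 1 complex with all subunits encoded in the nucleus and also serves the citric acid cycle. Its sum was 130 ± 16.5 normalised molecules with DMSO and 126 ± 10.9 with picrotoxin. The membrane anchors Sdhc and Sdhd had log2 fold changes of −0.12 (SE 0.16) and −0.11 (SE 0.18), the iron–sulfur protein Sdhb −0.02 (SE 0.16) and the flavoprotein Sdha 0.17 (SE 0.20). Sdha had 17.2, 20.1 and 33.3 normalised molecules with DMSO and 18.9, 23.3 and 38.1 with picrotoxin. No member came near the threshold, the smallest adjusted p being 0.901.

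Complex IV, cytochrome c oxidase, summed to 847 ± 64.6 normalised molecules with DMSO and 829 ± 21.3 with picrotoxin. Its DMSO libraries numbered 1 and 2 averaged 926 and those numbered 3 to 6 averaged 808, so the spread within DMSO exceeded the difference between the groups. The 12 members had a median log2 fold change of −0.03, 7 below and 5 above 0. Cox4i1, the regulatory subunit 4, had 79.3, 85.9 and 93.0 normalised molecules with DMSO and 72.2, 85.2 and 98.3 with picrotoxin, a log2 fold change of 0.01 (SE 0.11) whose sign changed with the scaling. Cox7a2 stood lowest (−0.21, SE 0.12; edgeR unadjusted p = 0.0985), with 4 picrotoxin libraries below the lowest DMSO library. Cox6a1 stood highest (0.16, SE 0.10; edgeR unadjusted p = 0.119): it had 97.3, 102 and 107 normalised molecules with DMSO and 95.7, 115 and 120.01 with picrotoxin, so that 5 picrotoxin libraries were above, and replicate 3 below, all DMSO libraries. Cox7a2l, which is known to join complexes into supercomplexes, had −0.05 (SE 0.15).

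Several subunits of complex IV have a paralogue restricted to certain tissues, such as striated muscle, testis or hypoxic lung. The macrophage libraries held the ubiquitous gene of each pair in far higher amounts. Per kilobase of transcript and averaged over the 12 libraries, Cox4i1 had 113 normalised molecules against 0.66 for Cox4i2, Cox6a1 188 against 0.60 for Cox6a2, and Cox6b1 110 against 0.68 for Cox6b2. Cox7a2 had 118 and its heart and muscle paralogue Cox7a1 3.803. Because molecules were counted from their poly(A) ends, a count need not grow with transcript length; without division by length, the means per library were 86.3 for Cox4i1 and 0.48 for Cox4i2, and 77.7 for Cox7a2 and 1.49 for Cox7a1. The paralogues Cox4i2, Cox6a2 and Cox6b2 were counted 6, 5 and 5 times in all libraries together. Cox8b, Cox8c, Cox7b2 and Ndufa4l2 were counted 0 times in 2888365 molecules, which allows a share of up to 0.000104%, a limit that covers counting error only. Against them, Cox8a had 107 to 137 and Ndufa4 6.24 to 18.6 normalised molecules per library. These 7 genes make up the matching symbols under the minimum. Cox4i2, with a mean count of 0.5, was the nearest below it, and Atp5s (1.33) and Cox7a1 (1.5) were the nearest above it.

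**Figure D4:**
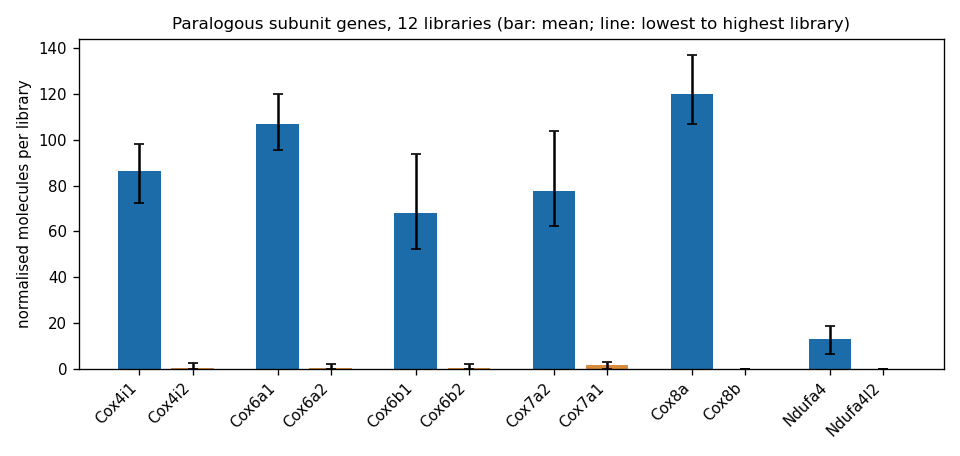
Normalised molecules per library (vertical axis, from 0, not divided by length) of paralogous subunit genes, as the mean (bar) and the lowest and highest (line) of all 12 libraries. The ubiquitous gene of each pair, in blue, stands above its paralogue, in orange, and Cox8b and Ndufa4l2 are at 0.

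Genes that serve the chain from outside its subunits were read from lists of the same kind. Of 47 tested assembly factors, 1 was lower and 0 higher at an unadjusted p under 0.05. The 1 was Ndufaf7, a methyltransferase for complex I assembly, at 3.10 ± 1.85 with DMSO and 0.85 ± 0.76 with picrotoxin (log2 fold change −1.72, SE 0.65; edgeR unadjusted p = 0.0116). Of 23 genes of protein import and inner membrane organisation 1 was lower, Tomm6 of the outer membrane import pore, at 32.8 ± 4.76 and 24.5 ± 2.403 (−0.41, SE 0.16; edgeR unadjusted p = 0.013), and the median of the list was −0.16.
Of 13 citric acid cycle genes, Cs, citrate synthase, was lower (−0.32, SE 0.15; edgeR unadjusted p = 0.0464) and Suclg1, of succinyl-CoA ligase, higher (0.46, SE 0.22; edgeR unadjusted p = 0.0421). Of 6 electron carrier and dehydrogenase genes, 12 carriers and porins and 11 regulators of respiratory genes, 0 passed in either direction. In none of these 6 lists did a gene have an adjusted p under 0.05. The counts stand beside backgrounds of 4.11% lower and 3.65% higher.

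Sequence shared between genes limits some counts. Of the 76 members with a gene model, 36 share a run of 50 bases with another gene and 23 do so within the last 300 bases of the transcript, where these libraries read; 23 have an exon of another gene on the opposite strand.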

How the data were processed

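The authors added molecular barcodes during reverse transcription from the poly(A) end, mapped reads to mm10 with STAR and deposited counts of molecules per gene symbol for each library; the strand setting of the counting is not given in the sources used here. From these deposited counts, genes with a mean above 1 normalised molecule (DESeq2 size factors) were tested with edgeR 4.0.16 (TMM, quasi-likelihood, two-sided, R 4.3.3) over 6 DMSO and 6 picrotoxin libraries, with Benjamini–Hochberg adjustment. DESeq2 1.42.0, after the study's own test, and 21 other settings were alternatives. Normalised molecules are counts divided by size factors. The members and gene lists were chosen with earlier results of these data known. Named were the members with an unadjusted p under 0.05, the most counted member of each complex, core and catalytic subunits and paralogue sets; other members are named for the ends of ranges, after their values were seen. Positions and transcripts come from GENCODE M21 (GRCm38), promoters from RefSeq (GRCm38.p6). Atp5o fell on 2 gene models and was given none. Individual values are given for a selection of members, and 1 member is left out of the text and of the plot of fold changes. Members without a promoter entry included Atp5a1, Cox4i1, Cox6c, Cyc1, Ndufa2, Ndufb9, Ndufs1, Sdhc, Uqcrb, Uqcrc2 and Uqcrq.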

Additional observations from a re-analysis of the deposited data

Results flagged for a closer look

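Of 74 group values checked, 3 held a library set far from the other 5 of its group, where chance gives about 1 in 20 (3.7 in 74). DMSO replicate 4 had 26.9 normalised molecules of Atp5g1, against 40.6 to 48.7 in the other DMSO libraries. The same library had a complex III sum of 329.3, against 374 to 400.5 in the others. Picrotoxin replicate 3 had 95.7 normalised molecules of Cox6a1, against 113 to 120.01 in the other picrotoxin libraries.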

How the results depend on the processing

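Across 22 alternatives, the medians of the complexes and of all members moved by less than the SD between libraries of the mean log2 level. For complexes I, II and IV that SD was larger than the median itself, so this limit could not register a change of sign. For complex III the SD among the picrotoxin libraries was also larger than the size of the median, so the same may hold there. The count of lower members stayed within 1.5 times the reported one. With single libraries left out, the medians of complexes I (−0.03 to 0.04), II (−0.13 to 0.01) and IV (−0.07 to 0.004) took either sign, and those of III and V stayed below 0. With each library left out, 3 to 5 members were lower, 0 to 2 higher and 0 had an adjusted p under 0.05. The members' median then ran from −0.09 to −0.04. Higher members, 0 as reported, numbered 1 with the libraries numbered 1 and 2 set against 3 to 6 as a term (Ndufb11) and 1 in replicates 3 to 6 alone (Ndufa9), where 1 member (Uqcrq) had an adjusted p under 0.05. Over all tested genes, deviations of same-numbered libraries correlated by −0.02 to 0.05, and the numbers were not taken as pairs, although the libraries numbered 1 and 2 averaged higher sums than those numbered 3 to 6 for every complex in both groups; with a replicate block 3 members were lower and 2 higher (Ndufa8, Ndufb11). The unadjusted p stayed under 0.05 in all 22 fits for Uqcrq and Atp5g1, 21 for Atp5d and 10 for Atp5c1. Signs turned for named members whose reported log2 fold change was smaller than its SE. Cox4i1 (0.01) was −0.0048 with DESeq2, −0.0047 with median-of-ratios factors, −0.017 without DMSO replicates 3 and 5, −0.0094 for genes with at least 1 count, −0.049 with library totals, −0.019 with a mean above 10 and −0.015 without Rn45s. Without DMSO replicates 3 and 5, Atp5g3 was 0.050, Ndufs3 0.0074 and Ndufv2 −0.079; Ndufv2 was −0.013 with library totals. Ndufs3 was 0.013 with the numbers as a term and 0.0095 in the replicate block. In replicates 3 to 6 alone Cox6b1 was 0.12, Cox7a1 0.50 and Sdhb 0.064. With single libraries left out the ranges crossed 0 for Ndufs1 (−0.22 to 0.098), Ndufs3 (−0.15 to 0.11), Ndufv2 (−0.044 to 0.085), Sdhb (−0.14 to 0.084), Uqcrfs1 (−0.0012 to 0.18), Cox4i1 (−0.037 to 0.047), Cox6b1 (−0.13 to 0.020), Cox7a1 (−0.49 to 0.16) and Atp5g3 (−0.093 to 0.018). The cause was not tested. Depth limits the low members: 3 molecules in a library are 0.000969 to 0.00149% of its total.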
